A study of Bos taurus with 14 samples.

Results

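The collagen chain genes of bovine back muscle were taken as the gene rows whose symbol is COL, a number, A and a number and which held any reads. This rule found 36 genes among the 18078 gene rows of the count table. A further row, COL9A3, carried such a symbol and held 0 reads. By the usual grouping of the collagen family, 10 of the 36 are fibrillar chains, 6 are type IV chains of basement membranes, 5 are type VI chains and 5 are FACIT chains (fibril-associated collagens with interrupted helices). The others are 2 multiplexins, 3 transmembrane chains, 3 chains of short-chain networks and 2 chains outside these classes.

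Transcripts were measured by RNA sequencing of longissimus dorsi, a muscle that runs along the back, from 14 female offspring aged 485 days. The dams of 7 control animals were fed 100% of requirements from gestational day 158 until they calved, and the dams of 7 restricted animals were fed less over the same days. The labels give 70% in one place and 50% in another for the restricted dams, so that group is named here without a level. Calves of both groups were handled alike after birth, with free access to feed from day 301. The labels used here name no breed, genotype, dam or sire, and whether animals shared a parent was not analysed here. Each sample was treated as 1 animal, and p-values measure the spread between these samples. Titles of the samples also end in a letter, A for 9 animals (5 control, 4 restricted) and B for 5 animals (2 control, 3 restricted), and the labels do not say what it stands for. The B animals were control 2, control 4, restricted 1, restricted 2 and restricted 7, numbered in the order of the samples within each diet. Titles also begin with a letter of unstated meaning, R for control 1, control 2 and restricted 1 and Y for the other 11 animals. In the comparisons below, title letter means the last letter.

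Collagens are secreted as chains that wind around each other into a helix, are trimmed and crosslinked outside the cell, and give muscle its connective tissue frame. In muscle, fibroblasts and fibro-adipogenic progenitors make most of the fibrillar collagens of endomysium, perimysium and epimysium. Type IV chains form the sheet-like network under the muscle fibre and around capillaries, type VI chains form beaded filaments at its outer face, and FACIT chains sit on the surface of fibrils. Because the samples were bulk tissue, fewer cells of a type and less RNA per cell cannot be told apart.

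Depth ranged from 13631000 to 17326000 reads per animal, with a mean of 15484000 in A animals and 16412000 in B animals. Markers of skeletal muscle fibre, 9 of 10 of which were found by symbol, held 17.1 to 20.0% of all reads, so the defining markers of the labelled tissue were present. The 36 collagen genes held 0.117% ± 0.0349 (SD, n = 14) of all reads, from 0.0783 to 0.192%. Of these genes, 28 had enough reads to be tested (at least 10 reads, scaled to library size, in enough animals) and 8 did not. A median member varied more between animals than a median gene, with an SD of 0.401 on the log2 CPM scale against 0.231 over the 12187 genes tested. CPM is the read count relative to the size of the library, scaled between libraries by the trimmed mean of M-values.

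COL3A1 was the most abundant chain per length. This chain forms type III fibrils, which are prominent in perimysium and vessel walls. It stood at 48.8 CPM per kilobase of its gene model, and the animals ranged from 25.3 to 95.8. The basement membrane chain COL4A1 followed at 25.3 CPM per kilobase, and the type VI chain COL6A1 at 24.4. COL1A2 and COL1A1, the chains of the type I fibrils of tendon and perimysium, stood at 20.5 and 17.0 CPM per kilobase. COL6A2, COL4A2 and the multiplexin COL15A1, a basement membrane chain with glycosaminoglycan side chains, lay close together at 15.9, 15.8 and 15.2 CPM per kilobase. These 8 genes made up 83.1% of the collagen total per length, with COL3A1 alone at 22.2%. Between neighbours in the order of the 7 genes below COL3A1, the difference was smaller than the spread over animals.

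**Figure D1:**
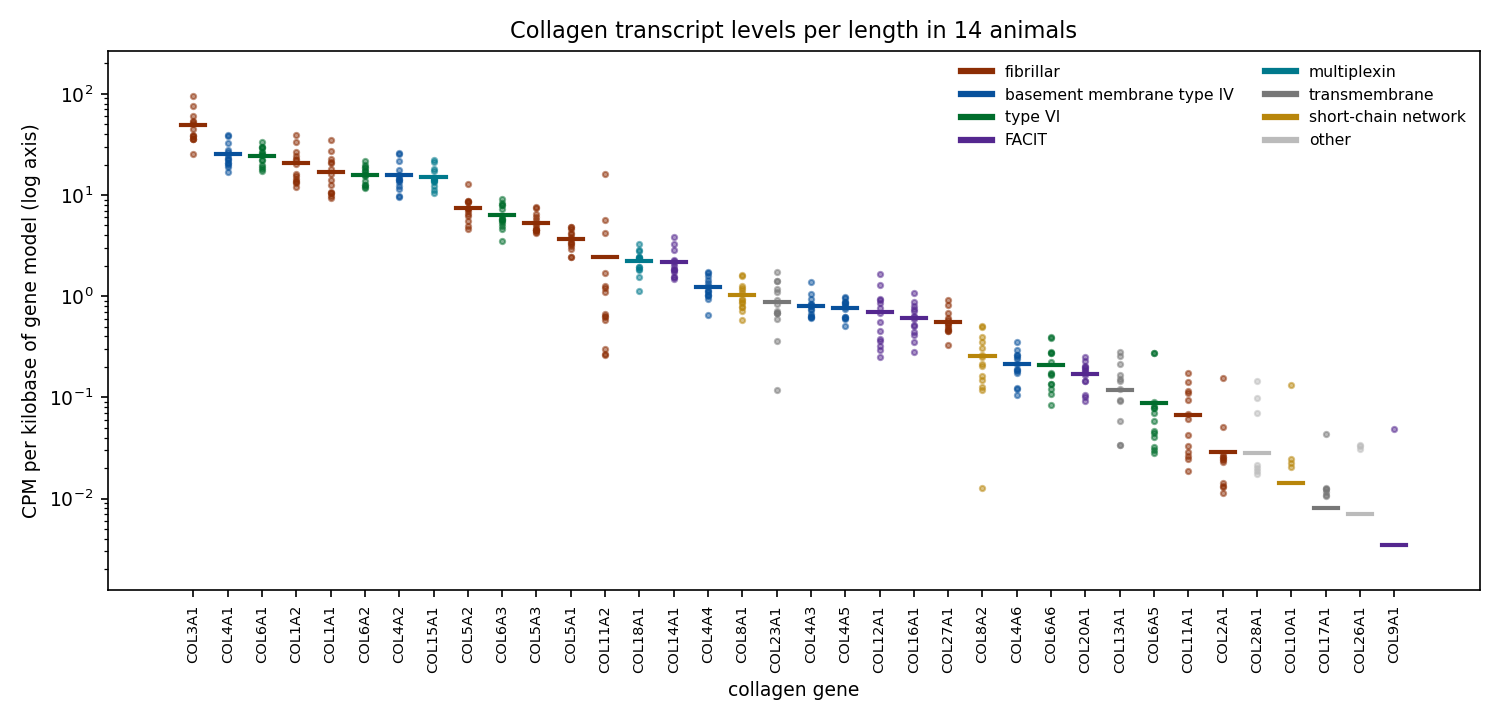
Level of each of the 36 collagen genes in CPM per kilobase of gene model (log axis), with 1 point per animal and a bar at the mean of the 14 animals, coloured by class. An animal with 0 reads has no point. COL3A1 leads at 48.8 CPM per kilobase, and the points of COL11A2 spread further than those of the other tested genes.

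Fibrillar chains made up 47.2% ± 4.88 (SD, n = 14) of the collagen total per length, type VI chains 21.7% ± 2.78 and type IV chains 20.3% ± 3.85. Multiplexins held 8.06% ± 1.29 and FACIT chains 1.64% ± 0.313. Among the lower fibrillar chains were the type V chains, which join type I fibrils and limit their width: COL5A2 stood at 7.44 CPM per kilobase, COL5A3 at 5.34 and COL5A1 at 3.64. The FACIT chains COL14A1 (2.16 CPM per kilobase), COL12A1 (0.696) and COL16A1 (0.613) lay below them. The remaining type IV chains COL4A3, COL4A4, COL4A5 and COL4A6, which form other basement membrane networks, stood between 0.212 and 1.22 CPM per kilobase. The value of COL4A4 rests on a gene model of 1353 bases, short beside the 5013 bases of COL4A3, and may not be comparable with the others.

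Ratios between chains were taken within each animal. Per length, COL1A1 stood at 0.815 ± 0.0622 of COL1A2 (SD, n = 14), with a range of 0.737 to 0.917. COL4A1 exceeded COL4A2 by a factor of 1.64 ± 0.136, and COL6A1 exceeded COL6A2 by 1.53 ± 0.101. Before division by length, COL6A1 and COL6A2 stood close together, at means of 75.3 and 72.3 CPM. Their gene models hold 3084 and 4539 bases, so the ratio of COL6A1 to COL6A2 depends on these lengths. COL6A3, a long chain of type VI microfibrils, was lower, so that COL6A1 stood at 3.97 ± 0.611 times its level. COL3A1 stood at 2.98 ± 0.450 times COL1A1. In every one of the 14 animals each of these 5 ratios per length stayed on the same side of 1, which for COL6A1 over COL6A2 depends on the gene models. Ratios between other partners ranged more widely. COL5A1 over COL5A2 ran from 0.360 to 0.685, COL5A3 over COL5A2 from 0.480 to 1.055, COL4A3 over COL4A4 from 0.457 to 1.12 and COL4A5 over COL4A6 from 2.44 to 6.15. The ratio of COL5A3 to COL5A2 thus crossed 1. That of COL4A3 to COL4A4 did so too, but where it lies around 1 depends on the short gene model of COL4A4.

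Correlations between chains over the 14 animals were computed for 14 pairs on log2 CPM, with two-sided permutation tests of 100000 resamples and Benjamini-Hochberg adjustment over the pairs. COL1A1 and COL1A2 had a Pearson r of 0.988 (permutation p = 1e-05, the smallest these resamples can give, adjusted 3.5e-05) and a Spearman rho of 0.987 (permutation p = 1e-05, adjusted 4.667e-05). Without the 2 animals farthest from the median of COL1A1, which were control 2 and restricted 7, r was 0.980, and within the 9 A animals it was 0.974. The basement membrane pair COL4A1 and COL4A2, neighbours on chromosome 12, had an r of 0.975 (permutation p = 1e-05, adjusted 3.5e-05) and a rho of 0.947 (permutation p = 1e-05, adjusted 4.667e-05). Their r was 0.947 without control 4 and restricted 7 and 0.964 within A. COL6A1 and COL6A2, neighbours on chromosome 1, had an r of 0.952 (permutation p = 1e-05, adjusted 3.5e-05) and a rho of 0.956 (permutation p = 1e-05, adjusted 4.667e-05). Their r was 0.942 without restricted 3 and restricted 6 and 0.919 within A. COL1A1 and COL1A2 lie on separate chromosomes, 19 and 4. The 5 B animals were too few for a correlation of their own.

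Pairs that cross classes ran from r 0.323 to 0.897. COL1A1 and the FACIT chain COL14A1 had an r of 0.897 (permutation p = 4e-05, adjusted 0.000112) and a rho of 0.917 (permutation p = 3e-05, adjusted 8.4e-05), with r at 0.850 without control 2 and restricted 7 and 0.895 within A. COL1A1 and COL6A1 had an r of 0.711 (permutation p = 0.00543, adjusted 0.00845) and a rho of 0.692 (permutation p = 0.00772, adjusted 0.0120). That relation rests in part on control 2 and restricted 7, without which r was 0.604 and no longer passed after adjustment (0.0649). COL1A1 and COL4A1 had an r of 0.466 (permutation p = 0.0939, adjusted 0.107) and a rho of 0.380 (permutation p = 0.181, adjusted 0.195). Within the A animals their r was 0.00271. COL4A1 and COL6A1 had an r of 0.323 (permutation p = 0.259, adjusted 0.259) and a rho of 0.358 (permutation p = 0.211, adjusted 0.211). The order of the animals was not the same for COL1A1 and COL4A1. Control 1 stood at 203 CPM for COL4A1, above 11 of the other animals, and at 68.3 CPM for COL1A1, in the middle of the range. Restricted 7 was the highest animal for both chains. Whether the 2 orders differ beyond the spread between animals was not tested.

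**Figure D2:**
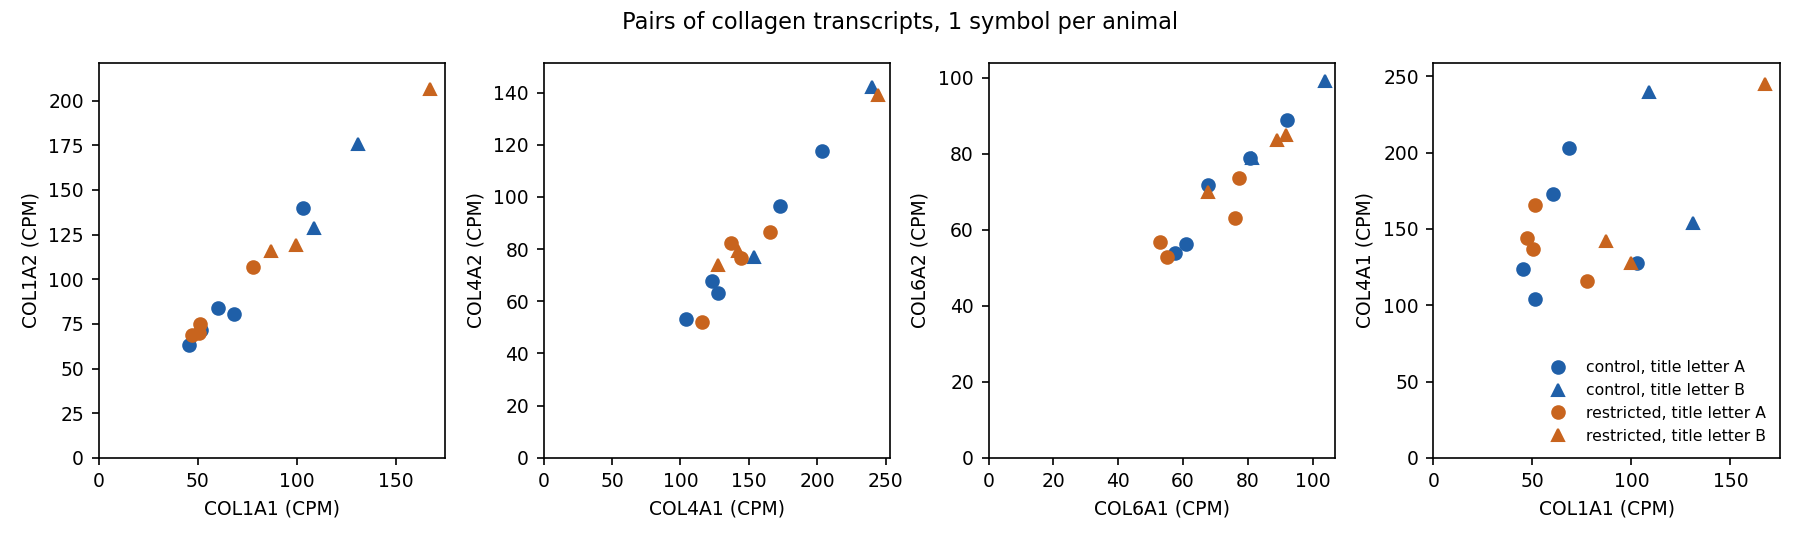
CPM of 4 pairs of collagen genes on linear axes that start at 0, with 1 symbol per animal, colour for the diet of the dam and shape for the title letter. The first 3 panels show partner chains on a narrow diagonal (r of 0.988, 0.975 and 0.952), and the panel of COL1A1 against COL4A1 shows a scatter (r of 0.466).

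The remaining 7 pairs lay within a class. COL1A1 and COL3A1 had an r of 0.940 (permutation p = 1e-05, adjusted 3.5e-05) and a rho of 0.934 (permutation p = 2e-05, adjusted 7e-05), and r was 0.882 without control 2 and restricted 7 and 0.785 within A. The FACIT chains COL12A1 and COL14A1 had an r of 0.841 (permutation p = 0.00013, adjusted 0.000303) and a rho of 0.811 (permutation p = 0.00067, adjusted 0.00117). COL6A1 and COL6A3 had an r of 0.821 (permutation p = 0.00038, adjusted 0.00076) and a rho of 0.815 (permutation p = 0.00065, adjusted 0.00117). COL4A5 and COL4A6, neighbours on chromosome X, had an r of 0.782 (permutation p = 0.00112, adjusted 0.00196) and a rho of 0.895 (permutation p = 6e-05, adjusted 0.00014). Without the 2 farthest animals and within A, r was 0.790 and 0.744 for the FACIT pair, 0.917 and 0.676 for the type VI pair, and 0.701 and 0.781 for the type IV pair. COL5A1 and COL5A2 had an r of 0.633 (permutation p = 0.0139, adjusted 0.0195) and a rho of 0.560 (permutation p = 0.0405, adjusted 0.0567). This relation rests on control 3 and control 5, without which r was 0.490, and r was 0.526 within A. The relation of the multiplexins COL15A1 and COL18A1, at r 0.542 (permutation p = 0.0453, adjusted 0.0576) and rho 0.539 (permutation p = 0.0494, adjusted 0.0629), did not pass after adjustment. Neither did that of COL4A3 and COL4A4, neighbours on chromosome 2, at r 0.460 (permutation p = 0.0995, adjusted 0.107) and rho 0.451 (permutation p = 0.109, adjusted 0.127). Without the 2 farthest animals and within A, r was 0.253 and 0.430 for the multiplexins and 0.369 and 0.116 for COL4A3 and COL4A4.

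Among 11450 tested genes with a symbol, the 5 whose log2 CPM followed COL1A1 most closely over the 14 animals were COL1A2, COL3A1 (r 0.940), COL8A1 (0.906), the fibroblast surface protein THY1 (0.899) and COL14A1 (0.897). So 4 of these 5 were collagen chains. For COL4A1 they were COL4A2 (0.975), the cell cycle kinase CDK2 (0.914), CORO2B (0.890), the endothelial cadherin CDH5 (0.876) and HSPG2, the basement membrane proteoglycan perlecan (0.863). For COL6A1 they were COL6A2 (0.952), the lysophosphatidic acid receptor LPAR1 (0.915), CEP78 (0.908), the adenylate cyclase ADCY7 (0.885) and FNDC1 (0.871). The 3 lists had no gene in common. All 14 points come from the same libraries, and these values are a description of the closest genes.

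Control 2 and restricted 7 carried most of the high values. Restricted 7 was the highest of the 14 animals in 10 of the 28 tested members and among the 3 highest in 21, and control 2 was highest in 8 and among the 3 highest in 18. Control 3 was lowest in 7 members and control 5 in 6. Their part in a comparison is given beside it where it matters.

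The first comparison was between the diets of the dams. No collagen gene passed the adjusted threshold of 0.05 by the quasi-likelihood test of edgeR, with p-values adjusted by Benjamini-Hochberg over 12187 genes, among which 0% passed. At an unadjusted p under 0.05 there were 2 of the 28 members, COL11A2 and COL27A1, both lower in restricted offspring, where 2.08% of all genes met that rule in this direction. In the other direction it was 0 members, against 2.17% of all genes. In either direction 4.25% of all genes had such a p. No member had every restricted animal above or every one below the controls, where 0.0246% and 0.0328% of all genes did. DESeq2 called 0 members and 1 gene in all (0.00821%), and limma's voom called 0 of either. The fitted ratio of restricted over control was above 1 for 9 of 28 members, beside 49.7% of all genes, and its median was 0.957, beside 0.9995 over all genes. This balance moved with single animals, since it was 16 of 28 without control 2 and 3 of 28 without restricted 7.

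By class the median fitted ratio was 0.976 for fibrillar, 0.974 for type IV, 1.02 for type VI, 0.913 for FACIT and 0.887 for multiplexin chains. COL3A1 ran from 137 through a median of 242 to 412 CPM in controls and from 192 through 208 to 518 CPM in restricted offspring. The groups overlapped over most of their range, and the fitted ratio was 1.03 with a 95% interval of 0.717 to 1.48. COL1A1 ran from 45.4 through 68.3 to 131 CPM in controls and from 47.3 through 77.8 to 168 CPM in restricted offspring, with a ratio of 1.02 (0.667 to 1.57). For COL1A2 the ratio was 1.02 (0.697 to 1.51). With the title letter in the model the fitted ratios of these 3 chains lay below 1.

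The abundant basement membrane, type VI, FACIT and multiplexin chains followed. COL4A1 ran from 104 through 154 to 240 CPM in controls and from 116 through 142 to 245 CPM in restricted offspring, and the ratio was 0.958 (95% interval 0.729 to 1.26). COL4A2 had a ratio of 0.956 (0.694 to 1.32) and COL4A3 of 0.988 (0.754 to 1.29). COL6A1 ran from 57.7 through 80.8 to 104 CPM in controls and from 53.0 through 76.2 to 91.8 CPM in restricted offspring, and the ratio was 0.938 (0.756 to 1.16). COL6A2 and COL6A3 had ratios of 0.919 (0.749 to 1.13) and 1.02 (0.779 to 1.33). Among FACIT chains the ratio was 0.904 (0.667 to 1.23) for COL14A1, 0.733 (0.418 to 1.29) for COL12A1 and 0.922 (0.629 to 1.35) for COL16A1. The multiplexins COL15A1 and COL18A1, the latter the source of the fragment endostatin, had ratios of 0.904 (0.724 to 1.13) and 0.871 (0.667 to 1.14). None of these intervals excluded 1.

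COL11A2, a minor chain of the thin fibrils of cartilage, was the most variable member. In controls it read 86.2, 6.76, 1.45, 22.8, 5.88, 30.7 and 1.63 CPM for control 1 to control 7, with a median of 6.76. In restricted offspring it ran from 1.43 through 3.40 to 9.25 CPM. Control 1, control 4 and control 6 were the high ones, and the other 4 controls lay inside the range of the restricted animals. The fitted ratio was 0.198 (95% interval 0.0669 to 0.588, edgeR unadjusted p = 0.00599, adjusted p = 0.99997 after Benjamini-Hochberg). The SD on the log2 CPM scale was 1.70, which 0.23% of tested genes reached. The difference was -2.33 on the log2 scale, and it was -1.40 without control 1 (edgeR unadjusted p = 0.0360) and -1.28 by limma's voom (unadjusted p = 0.162). None of the 5 genes closest to it over the 14 animals was a collagen. The first were ACAD9 (r 0.814) and EMC1 (0.809), which were looked up after the values of COL11A2 had been seen. Of the 6 cartilage markers listed, CHAD was the most abundant, at a mean of 1.26 CPM over the 14 animals. SOX9 stood at 0.367 CPM, ACAN, the core protein aggrecan, at 0.055 CPM, and MATN1, MATN3 and HAPLN1 at 0.0127 to 0.0357 CPM. The sum of the 6 ranged from 0.785 to 2.62 CPM among control animals, against 0.967 to 3.23 CPM among restricted ones. Whether cartilage had a part in the COL11A2 values was not tested.

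COL27A1, a fibrillar chain of cartilage and other tissues, ran from 3.54 through 4.61 to 7.26 CPM in controls and from 2.58 through 3.69 to 4.76 CPM in restricted offspring. Control 4, control 6 and control 7 lay above every restricted animal, and the other controls overlapped them. The fitted ratio was 0.741 (95% interval 0.579 to 0.949, edgeR unadjusted p = 0.0203, adjusted p = 0.99997 after Benjamini-Hochberg). Without control 4 the unadjusted p was 0.0606.

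By p-value, the members with a fitted ratio above 1 were headed by COL6A5, COL8A2, COL4A4, COL5A2 and COL3A1. COL6A5, a minor type VI chain, ran from 0.301 through 0.701 to 0.817 CPM in controls. Restricted 1 and restricted 5 stood at 2.76 and 2.71 CPM, from 44 and 43 reads, and the other 5 restricted animals between 0.283 and 0.898 CPM. The fitted ratio of 1.84 (0.879 to 3.86, edgeR unadjusted p = 0.0996) thus came with 2 high animals, and the log2 ratio of 0.88 was 0.49 without restricted 1 and 0.51 without restricted 5. COL8A2, a chain of hexagonal networks in vessels and cornea, read 0.0701 CPM in control 1, from 1 read, and 0.645 to 2.79 CPM in the other 13 animals, and its ratio was 1.47 (0.790 to 2.75). COL4A4 had a ratio of 1.13 (0.835 to 1.53) and COL5A2 of 1.09 (0.835 to 1.42). Below 1, the 3 next to COL27A1 by p were COL23A1, a transmembrane chain (0.734, 0.423 to 1.27), COL12A1 and COL18A1.

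**Figure D3:**
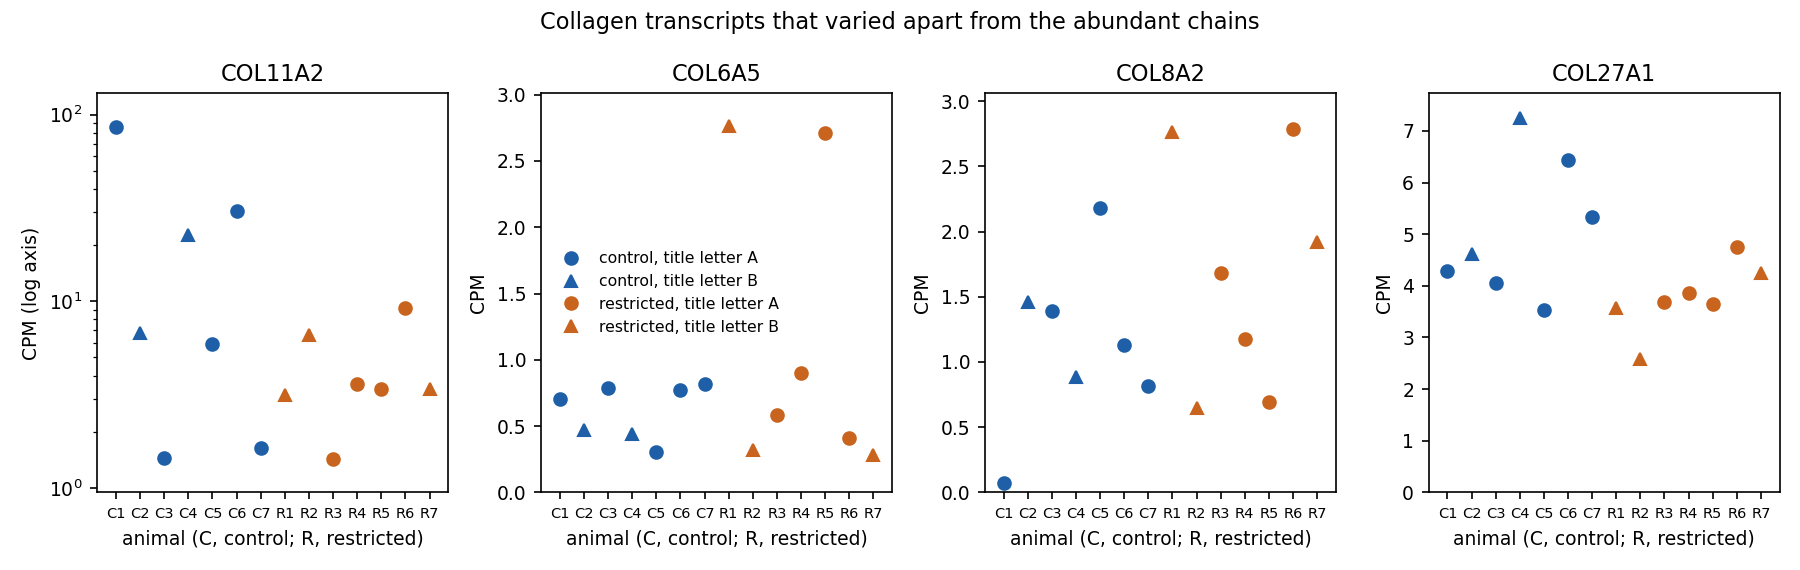
CPM of COL11A2 (log axis), COL6A5, COL8A2 and COL27A1 (linear axes from 0) in each animal, C1 to C7 for controls and R1 to R7 for restricted offspring, with shape for the title letter. COL11A2 is high in control 1, 4 and 6, COL6A5 in restricted 1 and 5, and COL8A2 is near 0 in control 1.

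The second comparison was between title letters, B over A, with the diet in the model. No collagen gene passed after Benjamini-Hochberg adjustment by edgeR's quasi-likelihood test, and neither did any other gene (0% of 12187). At an unadjusted p under 0.05, 13 of the 28 members (46.4%) were higher in B and 0 were lower, where 3.81% of all genes were higher and 2.12% were lower by that rule and 5.92% in either direction. The fitted ratio was above 1 for 25 of 28 members (89.3%), beside 49.1% of all genes, and the median ratio was 1.28 for members and 0.998 for all genes. The 25 of 28 was also the count with relative log expression or library size scaling. Leaving out 1 animal at a time gave 11 to 17 members in place of 13, with 12 without restricted 7 and 11 without control 2. DESeq2 called 20 genes (0.164%), among them COL1A1 (adjusted p = 0.00219), COL3A1 (0.00392), COL1A2 (0.0138) and COL8A1 (0.0470), and limma's voom called 0. No member had every B animal above every A animal, where 0.0656% of all genes did, or every B animal below, where 0.0328% did. Members varied together over the animals, as COL1A1 with COL1A2 (r 0.988) and COL6A1 with COL6A2 (r 0.952). All were read from the same libraries, so counts of members by letter are not counts of independent observations. The members were also chosen with earlier results of these data known. What the letter records is not given in the labels.

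The 13 members fell into 4 classes. They were 5 of 8 tested fibrillar chains (COL1A1, COL1A2, COL3A1, COL5A2 and COL5A3), 4 of 5 type VI chains (COL6A1, COL6A2, COL6A3 and COL6A6), 3 of 4 FACIT chains (COL12A1, COL14A1 and COL16A1) and the short-chain COL8A1. Type IV chains gave 0 of 6 and multiplexins 0 of 2. The median ratio was 1.33 for fibrillar, 1.28 for type VI, 1.53 for FACIT, 1.245 for type IV and 1.21 for multiplexin chains, so type IV and multiplexin chains lay on the same side of 1 without passing. Whether the classes differed from each other was not tested.

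COL1A1 read 131 CPM in control 2, 109 in control 4, 87.2 in restricted 1, 99.6 in restricted 2 and 168 in restricted 7, the 5 B animals. In the A animals it ran from 45.4 through a median of 51.5 to 103 CPM. Of the 9 A animals, control 7 alone reached into the range of the B animals. The fitted ratio was 1.96 (95% interval 1.48 to 2.61, edgeR unadjusted p = 0.00012, adjusted p = 0.293 after Benjamini-Hochberg). The adjusted p was 0.0364 without control 7 and 0.00317 without control 7, restricted 4 and restricted 7, which earlier results of these data had set apart. Both settings leave out control 7, the A animal inside the range of B, so these lower values add no support. By edgeR the adjusted p was 0.783 in controls alone and 0.818 in restricted animals alone. Over all alternative settings it ran from 0.00219 (DESeq2) to 0.971. COL3A1 read 412, 330, 284, 273 and 518 CPM in the same 5 B animals and ran from 137 through 206 to 294 CPM in A, with a ratio of 1.76 (1.38 to 2.25, unadjusted p = 0.000151, adjusted p = 0.307). COL1A2 had a ratio of 1.79 (1.36 to 2.35, unadjusted p = 0.000389, adjusted p = 0.404). It read 176, 129, 116, 119 and 207 CPM in B and ran from 63.1 through 75.2 to 140 CPM in A. In both of these chains too, control 7 was the A animal inside the range of B.

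COL8A1, a chain of the short-chain networks of vessel walls, read 8.28, 5.54, 6.15, 5.87 and 8.04 CPM in the B animals, in the same order, and ran from 2.96 through 4.35 to 6.47 CPM in A. Its ratio was 1.59 (95% interval 1.27 to 1.9986, edgeR unadjusted p = 0.00054, adjusted p = 0.411 after Benjamini-Hochberg). COL5A3 read 39.9, 46.0, 32.6, 29.5 and 47.4 CPM in B and ran from 25.9 through 28.1 to 37.5 CPM in A, a ratio of 1.33 (1.13 to 1.57). COL8A1 and COL5A3 had every B animal above the A median, and so did the 3 type I and type III chains.

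Among FACIT chains, COL14A1 read 21.2, 12.5, 12.2, 11.1 and 17.9 CPM in the B animals and ran from 8.14 through 10 to 15.9 CPM in A. Its ratio was 1.49 (95% interval 1.16 to 1.91). COL12A1, a chain of tendon and fascia fibrils, read 15.4, 7.81, 6.97, 5.16 and 8.66 CPM in B and ran from 2.33 through 3.47 to 11.9 CPM in A, a ratio of 1.81 (1.09 to 2.9995). COL16A1 had a ratio of 1.57 (1.12 to 2.19). Every B animal lay above the A median in these 3 chains, while the ranges overlapped.

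COL6A1 read 104, 81.2, 91.8, 67.6 and 89.1 CPM in the B animals and ran from 53.0 through 67.8 to 92.1 CPM in A, a ratio of 1.28 (95% interval 1.05 to 1.55). The ratio was 1.28 (1.08 to 1.53) for COL6A2 and 1.405 (1.12 to 1.76) for COL6A3. COL6A6, a low chain of the same family, read 2.39, 1.72, 2.45, 1.10 and 1.75 CPM in B and ran from 0.527 through 0.846 to 1.70 CPM in A, a ratio of 1.91 (1.29 to 2.81). The 4 chains lay in the same direction, and COL6A5 had a ratio of 0.840 (0.377 to 1.87). COL4A1 read 154, 240, 142, 128 and 245 CPM in B and ran from 104 through 137 to 203 CPM in A, with a ratio of 1.28 (0.981 to 1.66). COL4A2 had a ratio of 1.34 (0.987 to 1.82), COL4A3 of 1.21 (0.924 to 1.60), COL15A1 of 1.201 (0.965 to 1.496) and COL18A1 of 1.22 (0.932 to 1.61). Besides COL6A5, the ratio was below 1 for COL11A2 (0.762, 0.231 to 2.51) and COL23A1 (0.710, 0.395 to 1.27); that of COL11A2 was above 1 by limma's voom.

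**Figure D4:**
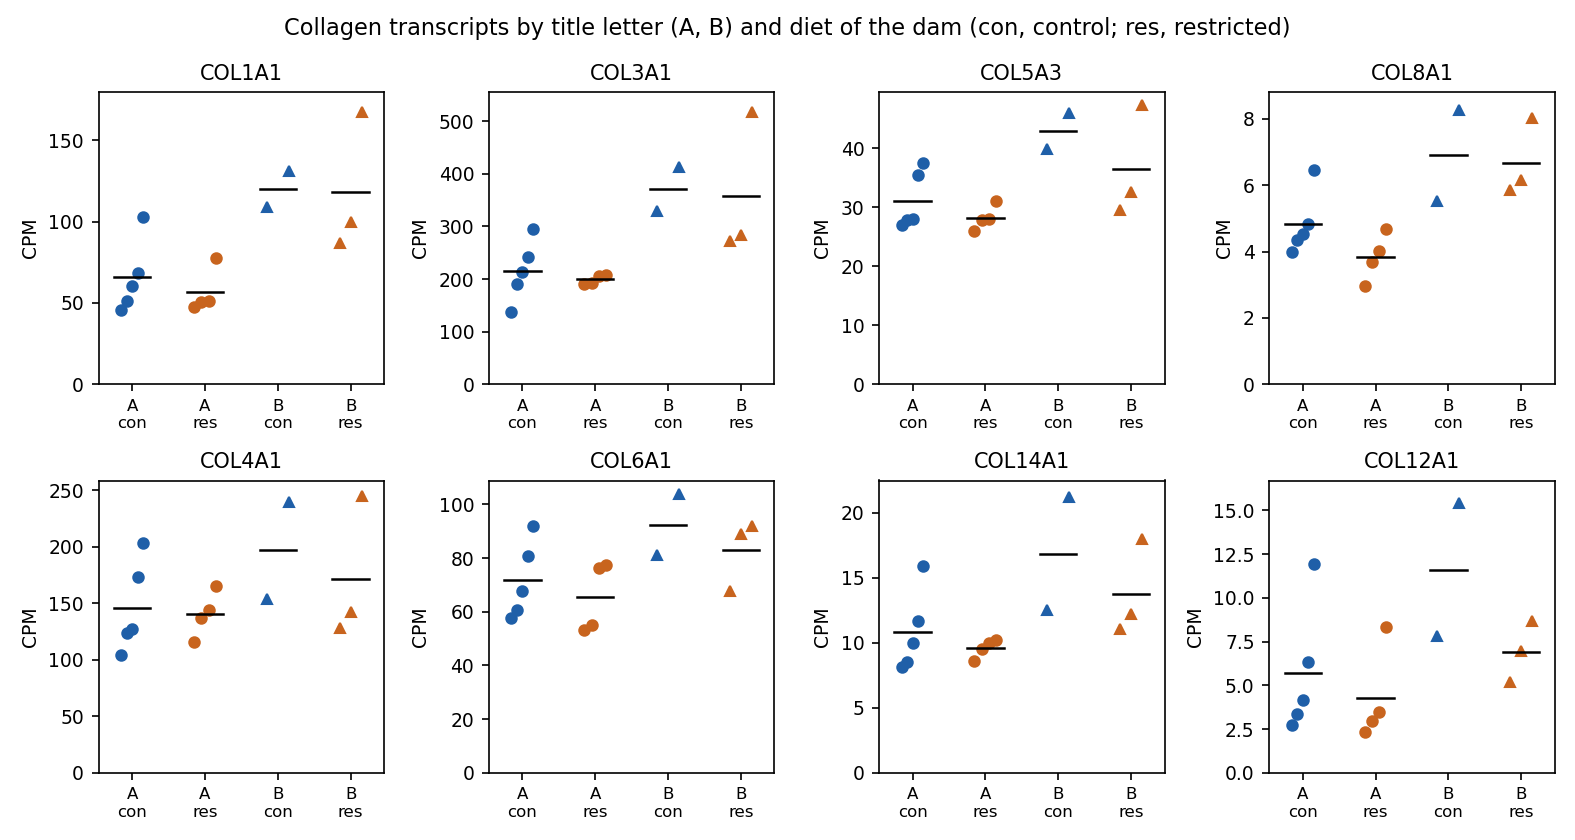
CPM of 8 collagen genes (linear axes from 0) by title letter and diet, with 1 symbol per animal and a bar at the mean of each cell of 5, 4, 2 and 3 animals. In COL1A1 and COL3A1 the B animals of both diets sit above the A animals apart from 1 control A animal at 103 and 294 CPM.

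The letter was also compared within each diet. In controls alone (5 A, 2 B) 7 of 29 tested members were higher in B at an edgeR unadjusted p under 0.05, beside 3.43% of all genes, and in restricted animals alone (4 A, 3 B) 10 of 29, beside 3.07%. COL1A1 had a log2 ratio of 0.87 in controls (unadjusted p = 0.00567) and 1.06 in restricted animals (unadjusted p = 0.00143). The interaction of diet and letter, which asks whether the 2 ratios differ, was at an unadjusted p under 0.05 in 0 of 28 members, beside 5.06% of all genes, and 0 genes passed after edgeR's Benjamini-Hochberg adjustment. With the smallest cell at 2 animals, this does not show that the ratios were alike.

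**Figure D5:**
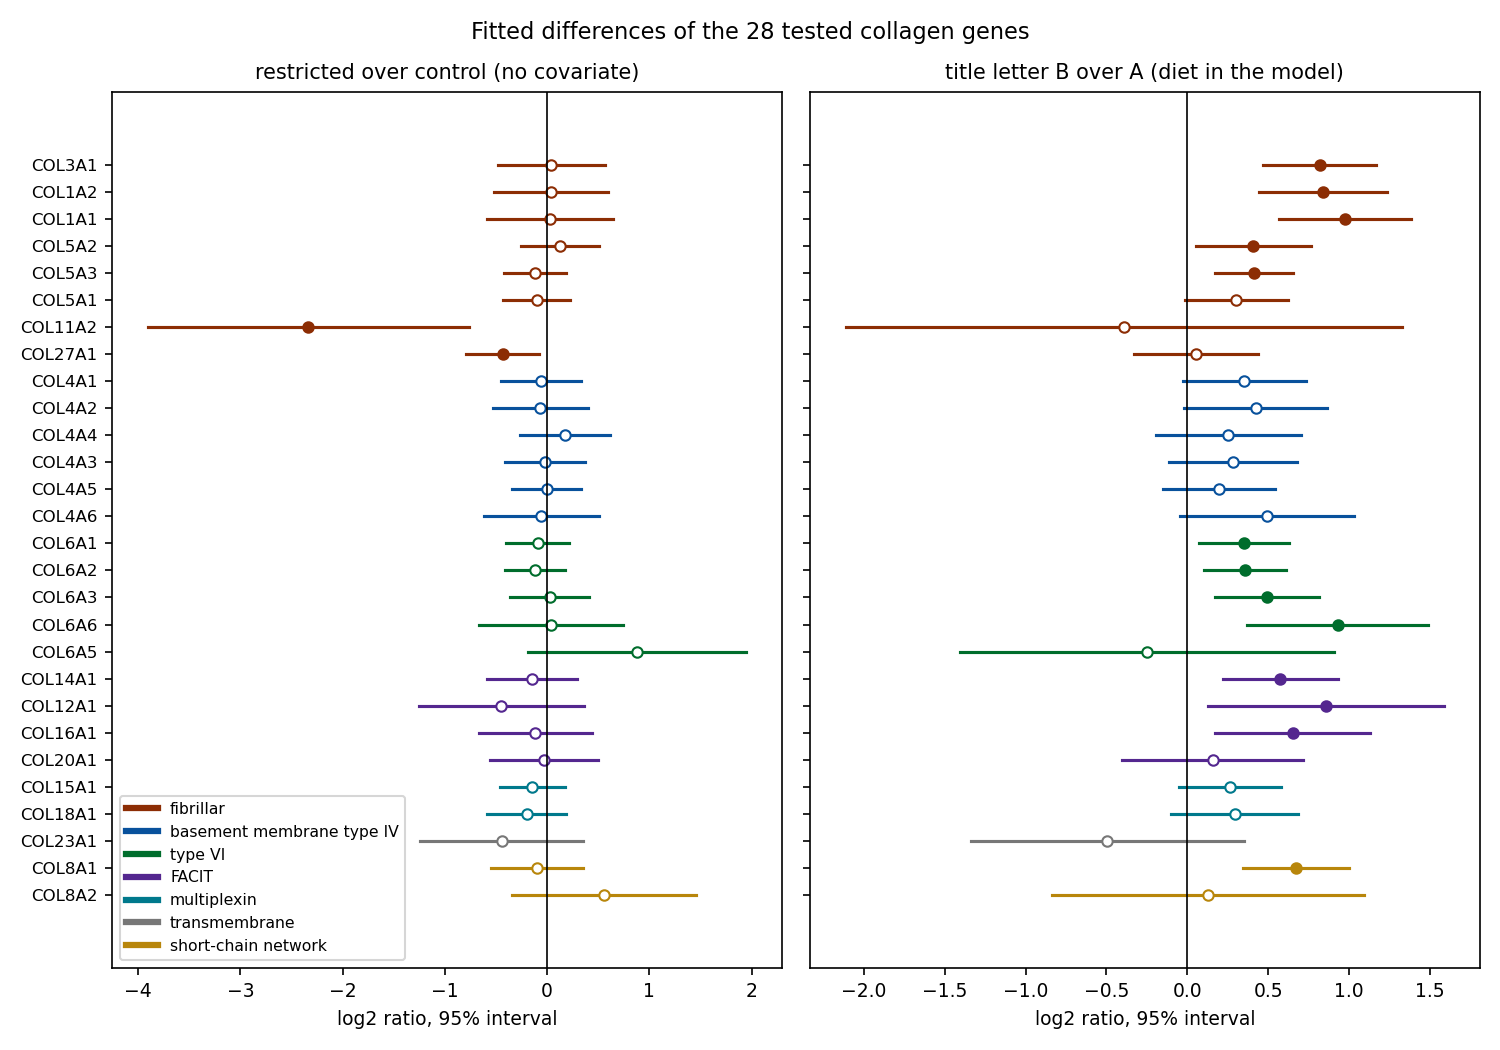
Fitted log2 ratio with its 95% interval for the 28 tested collagen genes, restricted over control at the left and title letter B over A at the right, coloured by class. A filled symbol has an unadjusted edgeR p under 0.05: 2 genes at the left, both below 0, and 13 at the right, all above 0. The axes differ in scale.

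The composition of the collagen total was also compared between letters. Fibrillar chains made up 44.9% ± 3.99 of it per length in A (SD, n = 9) and 51.4% ± 3.39 in B (SD, n = 5). Type IV chains made up 21.2% in A and 18.6% in B. The COL1A1 to COL1A2 ratio was 0.788 ± 0.0518 in A and 0.865 ± 0.0495 in B, with overlapping ranges. These proportions were not tested.

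Genes that act on collagens after translation were counted by lists. Among enzymes and chaperones of procollagen modification and folding, 1 of 20 tested was higher in B at an unadjusted edgeR p under 0.05 and 0 were lower. The most abundant were the chaperone HSPA5 (ratio 1.145, 0.990 to 1.33) and the hydroxylase subunit P4HB (0.980, 0.865 to 1.11). For procollagen processing and crosslinking it was 5 of 12 higher and 0 lower. There SPARC, a collagen-binding matrix protein, had a ratio of 1.40 (1.16 to 1.70) and fibronectin, FN1, of 1.32 (0.988 to 1.77). For collagen degradation and its inhibitors it was 6 of 10 higher and 0 lower, with the gelatinase MMP2 at 1.38 (1.10 to 1.73) and the inhibitor TIMP2 at 1.15 (0.938 to 1.41). For basement membrane partners it was 5 of 11 higher, though the most abundant, the laminins LAMB2 and LAMC1, had ratios of 1.08 (0.968 to 1.21) and 1.015 (0.859 to 1.2). Collagen receptors gave 1 of 10, with the integrin ITGB1 at 1.003 (0.898 to 1.12), and TGF-beta and fibrotic signalling 1 of 16. None of these genes passed after adjustment by edgeR, and the share over all genes was 3.81%. Among its 20 genes DESeq2 called LOXL2, of the processing and crosslinking list.

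Between the diets, these 6 lists held 1 of 79 tested genes higher in restricted offspring (1.27%) and 2 lower (2.53%) at an unadjusted edgeR p under 0.05, and 0 passed after adjustment. Over all genes the shares were 2.17% and 2.08%, so the lists lay near them. The median log2 difference ran from -0.12 in the TGF-beta list to 0.0048 in procollagen modification. The mean level of SPARC was 217 CPM for controls against 239 CPM for restricted animals, and that of HSPA5 was 111 against 116 CPM.

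Markers of the cells a muscle sample can hold were measured beside the letter. No marker passed after adjustment by edgeR, and at an unadjusted p under 0.05 the shares over all genes were 3.81% higher in B and 2.12% lower. Among its 20 genes (0.164% of all) DESeq2 called LUM and THY1 of the fibroblast list and NCAM1 of the Schwann cell and nerve list. The fibroblast and fibro-adipogenic progenitor list, all 13 of its genes tested, had 6 higher in B and 0 lower at an unadjusted edgeR p under 0.05, and its summed level ran from 408 to 706 CPM in A and from 546 to 722 CPM in B. The 2 most abundant, the proteoglycan DCN and GSN, had ratios of 1.32 (1.06 to 1.64) and 1.19 (0.987 to 1.44). Over the 13 genes the ratio ran from 0.946 for TCF7L2 to 1.84 for POSTN, and it was above 1 in 12. LUM, at 1.64 (1.35 to 1.99), had the smallest p of them (edgeR unadjusted p = 5.49e-05, adjusted p = 0.223). For tendon and aponeurosis 2 of 5 tested markers were higher and the summed level ran from 95.1 to 139 CPM in A and from 101 to 196 CPM in B. Ratios of the tested markers ran from 0.894 for TPPP3 to 1.84 for KERA. Of the markers with too few reads for a test, TNMD, SCX and MKX reached at most 0.76 CPM and CILP2 0.816 CPM. COMP ran from 0 through a median of 0.377 to 3.50 CPM in B and from 0 through 0.151 to 1.19 CPM in A. Macrophage markers gave 3 of 9. Endothelium gave 0 of 11 (254 to 355 CPM in A, 253 to 389 CPM in B), smooth muscle and pericyte 0 of 12 and skeletal muscle fibre 0 of 9. Adipocyte markers gave 0 of 8 by that rule, with a fitted ratio above 1 in 7 of 8 and a summed level of 130 to 298 CPM in A and 186 to 358 CPM in B. The median log2 ratio of B over A was 0.48 for adipocyte, 0.43 for macrophage, 0.39 for tendon, 0.28 for fibroblast, 0.09 for endothelium and 0.08 for smooth muscle markers. Schwann cell and nerve markers had a median of 0.04, with a ratio above 1 in 5 of 7 and 1 of 7 higher by that rule. Of the cartilage markers only CHAD was tested, at 0.61. For muscle fibre markers the median was -0.09, with 9 of 9 below 1. Each of these medians kept its sign with relative log expression and library size scaling. Libraries of B animals also held more genes with reads on average, 15492 against 15225 in A, with overlapping ranges (15262 to 15725 and 15071 to 15496). Their mean depth was also higher, at 16412000 against 15484000 reads. The part of these differences in the collagen result was not tested. When libraries were scaled to their totals alone, 18 of 28 members were higher in B at an unadjusted p under 0.05, beside 7.40% of all genes.

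The 8 members with too few reads for a test were the fibrillar COL11A1 (111 reads in all 14 animals) and COL2A1 (33), the FACIT COL9A1 (1), the transmembrane COL13A1 (55) and COL17A1 (10), the short-chain COL10A1 (10), and COL28A1 (20) and COL26A1 (3). COL2A1 and COL10A1 are chains of cartilage, and COL17A1 belongs to epithelial attachments. Control 2 held 13 of the reads of COL2A1, where the other animals had 0 to 4, and 7 of the 10 reads of COL10A1, where they had 0 or 1. It also had 22 reads of COL11A1 (others 0 to 15) and 8 of COL28A1 (others 0 to 5). The summed cartilage markers ranged from 0.785 to 3.23 CPM over the animals. COL13A1, a transmembrane chain of the neuromuscular junction, stood at 0.428 ± 0.134 CPM in B (SD, n = 5) and 0.140 ± 0.118 CPM in A (SD, n = 9), from at most 9 reads per animal.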

How the data were processed

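The members and the gene lists were chosen with earlier results of these data known. The deposited values are raw read counts per gene, per the file headers and the values, which are whole numbers. Per the submitters' processing notes, the authors used FastQC, HISAT2, the build ARS-UCD1.2, featureCounts and edgeR; their settings, strand included, were not given in the sources used, so reads of overlapping or antisense genes may be mixed. Members were matched by symbol to RefSeq genes of the assembly ARS-UCD2.0 (36 of 36) for neighbours only. No coordinates or sequences were used here.

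Counts were fitted in R 4.3.3 with edgeR 4.0.16 (filterByExpr, minimum count 10 and total 15; trimmed mean of M-values; quasi-likelihood F test), over all 12187 genes kept, with Benjamini-Hochberg adjustment and a threshold of 0.05. The diet fit had no covariate; the letter fit kept the diet. Intervals are 95%, from the t distribution of the fit. Correlations used log2 CPM with a prior count of 2. limma 3.58.1 (voom), DESeq2 1.42.0, other scalings and filters, title letters as covariates, subsets and leaving out each animal were the alternatives. Levels per kilobase use the deposited gene lengths, so ranks and ratios per length depend on those gene models. The test was run first on simulated counts. Between any 2 libraries, chi-square over genes was at least 12 per degree of freedom, so none was a copy. The common biological coefficient of variation was 0.190.

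Named genes were the 5 members with the smallest p in each direction, the 3 most abundant members of the fibrillar, type IV, type VI and FACIT classes, both multiplexins, the 5 genes most like COL1A1, COL4A1 and COL6A1, and the 2 most abundant genes of each list shown. Other names were chosen after their values were seen.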

Additional observations from a re-analysis of the deposited data

Results flagged for a closer look

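In each tested collagen gene and each diet group of 7 animals, the highest and the lowest animal were compared with the rest by Dixon's test. Of 56 groups tested, 10 held an animal that stood apart, and chance gives about 1 in 20. In 9 of these 10 the animal was restricted 7. It stood at 517.7 CPM for COL3A1 (other restricted animals 191.6 to 284.1), 206.7 for COL1A2 (69.02 to 119.4), 38.65 for COL5A1 (23.48 to 29.75) and 47.42 for COL5A3 (25.93 to 32.64). For the basement membrane chains it stood at 244.6 for COL4A1 (116 to 165.4), 139.2 for COL4A2 (52.21 to 86.74) and 6.904 for COL4A3 (3.095 to 4.012). It stood at 17.94 for the FACIT chain COL14A1 (8.568 to 12.18) and 122 for COL15A1 (65.15 to 85.92). These 9 genes come from 1 library and are not independent of each other. The other was COL11A2 in control 1, at 86.2 CPM against 1.45 to 30.66 in the other controls.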

How the results depend on the processing

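No paired analysis was possible because replicate numbers were given in sample order and the numbers in the titles are not shared between diets. Between diets, 0 genes were called, and 1 each by DESeq2, with titles ending in A and with titles ending in B. The 2 members lower at an unadjusted p under 0.05 became 4 without a filter on low counts and 1 by limma's voom or with titles ending in A, and 1 to 3 when 1 animal was left out. The 0 higher members became 1 without control 7, restricted 4 and restricted 7, and 0 to 1 when 1 animal was left out. Diet log2 ratios changed sign in several chains. With library size scaling they were -0.01863 for COL3A1, -0.02702 for COL1A2, -0.03088 for COL1A1 and -0.0331 for COL6A3. Without the 3 libraries these chains were at -0.1449, -0.1648, -0.2102 and -0.05954, with the title letter in the model at -0.08945, -0.1027, -0.1459 and -0.04833, in A animals alone at -0.1114, -0.1348, -0.2143 and -0.04719, and in B animals alone at -0.04771, -0.0434, -0.02037 and -0.04827. By voom COL1A1 was at -0.005677. COL5A2 was at -0.08364 in A alone, and COL4A3, COL18A1 and COL4A4 were at 0.04961, 0.06918 and -0.1044 in B alone. Leaving out 1 animal gave -0.2026 to 0.1927 for COL3A1, -0.1989 to 0.2034 for COL1A2, -0.2381 to 0.1897 for COL1A1, -0.03859 to 0.21 for COL5A2, -0.2123 to 0.06315 for COL4A1, -0.2309 to 0.09332 for COL4A2, -0.2084 to 0.05459 for COL4A3, -0.08404 to 0.113 for COL6A3, -0.2939 to 0.0329 for COL14A1 and -0.2213 to 0.05812 for COL16A1. The cause was not tested.

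By title letter, the 0 genes called became 1 without a filter, 20 by DESeq2, 5 without the 3 libraries, 3 in controls alone and 0 to 2 when 1 animal was left out. The 0 members called became 4 by DESeq2, 2 without the 3 libraries and 0 to 1 when 1 animal was left out. The 13 higher members became 7 in controls alone and 11 to 17 when 1 animal was left out, and the 0 lower became 0 to 1. COL11A2 was at 0.4773 by voom and from -0.6253 to 0.2717 when 1 animal was left out, and COL6A5 from -1.195 to 0.2072. Of the pairs, COL5A1 with COL5A2 fell to r 0.4896 and COL1A1 with COL6A1 to 0.6039 without the 2 farthest animals. COL4A3 with COL4A4 came to 0.5538 and COL15A1 with COL18A1 to 0.6068 with library size scaling, both then past the adjusted threshold. Low counts limit COL6A5, COL6A6, COL8A2, COL20A1 and the members that were not tested.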
